A study of Mus musculus with 6 samples.

Results

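The genes examined here encode proteins of neutrophil granules, and they are used as a readout of granulocytes and immature marrow cells left in macrophage cultures. They were taken from the deposited table by symbol and were the 4 azurophil granule genes Elane, Mpo, Prtn3 and Ctsg, the 2 calprotectin genes S100a8 and S100a9, and the 4 specific granule genes Ngp, Camp, Ltf and Lcn2. All 10 were found among its 52550 genes. Both groups were BMDMs (bone marrow-derived macrophages) from C57BL/6 mice, grown for 7 days in 25 ng/mL M-CSF, the growth factor of macrophages, after red blood cell lysis, and then given LPS, a bacterial cell wall component, at 100 ng/mL for a duration that the sources used here do not give. GIT1 CKO mice carried floxed Git1, which encodes a scaffold protein, with Cre driven by Lyz2, a promoter active in macrophages and granulocytes alike. GIT1 fl/fl mice, the controls, which the submitters label CWT, carried floxed Git1 without Cre. There were 3 mRNA libraries per group, described as biological replicates, from mice whose age the sources used here leave out.

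Granules are filled in the order in which a neutrophil matures. Azurophil granule proteins are made by promyelocytes and their precursors, specific granule proteins by myelocytes and metamyelocytes, and the genes are switched off once that stage is passed. The transcription factors PU.1 and C/EBP family members act on many of these promoters. Calprotectin is the cytosolic heterodimer of S100A8 and S100A9, which neutrophils and monocytes hold in large amounts. A differentiated macrophage makes little of the azurophil proteins, whereas Lcn2 and S100a8 can also be induced in macrophages by LPS, so their transcripts do not belong to neutrophils alone.

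Total counts per library ran from 61895190 to 157485640, with GIT1 CKO replicates 1 and 2 the deepest. Levels are given in CPM, a gene's counts relative to the library total after TMM scaling, as edgeR computes them. GIT1 fl/fl replicate 2 stood apart in base composition, with a Spearman's rho of 0.647 between a gene's GC content and its level relative to the mean of the other libraries, against -0.42 to 0.197 in the others. Counts of 4 genes of the Y chromosome (Ddx3y, Eif2s3y, Kdm5d and Uty), expressed by male cells only, summed to 1776 to 5104 in GIT1 fl/fl and to 0 to 4 in GIT1 CKO libraries. Xist, the RNA of the inactive X chromosome of female cells, was at 1050 to 1110 CPM in GIT1 CKO and also present, at 226 to 607 CPM, in each control library. The control libraries thus held transcripts of both kinds in varying amounts, and the sex makeup of the cells and the genotype cannot be told apart here. All 20 genes of a macrophage marker list had counts and passed the filter on low counts. That filter kept 16287 of 25239 genes with counts, among them 13 of 14 stromal and endothelial genes, so passing it does not identify the cells. The macrophage markers stood at 14.1 to 19500 CPM per kilobase of exon, averaged over the 6 libraries.

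Sequences are shown for the gene with the most counts (Prtn3), its neighbour with almost none (Elane) and a gene known to respond to LPS (Lcn2). They are RefSeq promoters of GRCm38.p6, read 5′ to 3′ on the gene's own strand. They run from 250 bases before to 50 bases after the RefSeq start site. The windows of Prtn3 and Lcn2 lie wholly inside the longer gene models whose coordinates are given below. Capitals mark a match to GAGGAAGT, a PU.1 motif, or to TTGCNNAA, a C/EBP motif, both searched on both strands and not overlapping in these windows. The Prtn3 window is chr10:79879417-79879716 on the plus strand, that of Elane chr10:79886062-79886361 on the plus strand, and that of Lcn2 chr2:32387690-32387989 on the minus strand.
Prtn3: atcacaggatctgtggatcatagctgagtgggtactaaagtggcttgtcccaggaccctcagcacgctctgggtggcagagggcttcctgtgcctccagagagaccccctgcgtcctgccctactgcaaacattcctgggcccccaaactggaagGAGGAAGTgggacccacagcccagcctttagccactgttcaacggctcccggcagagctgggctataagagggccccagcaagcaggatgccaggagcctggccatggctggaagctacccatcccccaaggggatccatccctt
Elane: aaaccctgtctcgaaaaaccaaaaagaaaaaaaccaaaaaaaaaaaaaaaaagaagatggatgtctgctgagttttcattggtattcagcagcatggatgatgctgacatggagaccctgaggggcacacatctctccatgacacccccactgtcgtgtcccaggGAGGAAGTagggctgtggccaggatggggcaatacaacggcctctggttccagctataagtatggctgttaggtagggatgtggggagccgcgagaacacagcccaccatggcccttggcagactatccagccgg
Lcn2: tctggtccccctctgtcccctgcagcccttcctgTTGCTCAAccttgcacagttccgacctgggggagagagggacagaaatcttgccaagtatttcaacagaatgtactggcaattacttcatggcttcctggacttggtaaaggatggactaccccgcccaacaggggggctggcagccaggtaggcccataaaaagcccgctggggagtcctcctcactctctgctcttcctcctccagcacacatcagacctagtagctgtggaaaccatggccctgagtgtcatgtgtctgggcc
The PU.1 letters stood 95 bases before the RefSeq start of Prtn3 and 85 bases before that of Elane, and were also found in the promoters of Mpo and S100a8. They occur in 3.2% of 32851 mouse promoters of the same length. The C/EBP letters stood 216 bases before the RefSeq start of Lcn2 and were also found for S100a9, Ngp and Ltf, against 10.8% of all promoters. The windows of Ctsg and Camp held neither motif in these letters.

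Prtn3 was the only granule gene with counts in every library, and the only one that passed the filter on low counts (edgeR's filterByExpr with a minimum count of 10), while the other 9 were at or near 0 in both groups. Of the 54 values of these 9 genes (9 genes in 6 libraries), 34 were 0. The 20 values above 0 ran from 4 to 30 counts with a median of 7, and 11 of them were in GIT1 CKO and 9 in control libraries. In none of the 10 genes were all libraries of one group above all those of the other. For the 9 genes at or near 0, ties at 0 limited such a separation in advance. The share of all genes whose groups do not overlap is not given here.

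**Figure D1:**
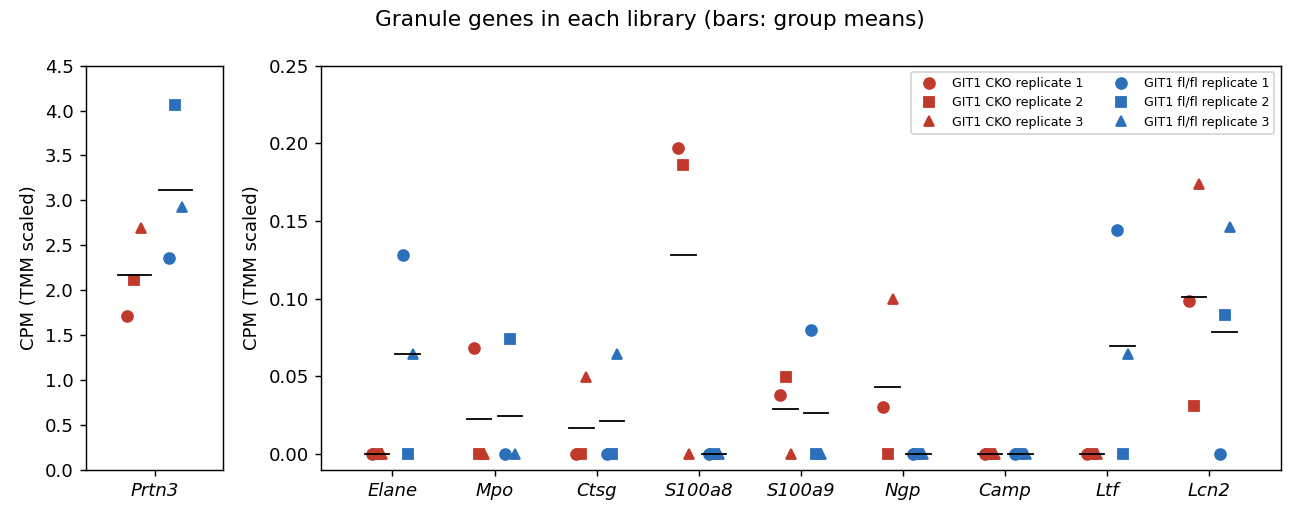
Level of each granule gene in the 6 libraries, in CPM (TMM scaled), with group means as bars; the axis of Prtn3 differs from that of the other 9 genes. Prtn3 lies between 1.71 and 4.06 CPM, and no other gene exceeds 0.197 CPM.

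The unit of these low values needs care. Among protein-coding genes, summed over the 6 libraries, a count of 4 was seen 1758 times and a count of 5 was seen 1200 times, against 238, 331 and 389 times for counts of 1, 2 and 3. Counts of 8 and 9 were again more frequent (1000 and 654 times) than counts of 6 and 7 (360 and 282 times). The ratio of genes at 4 to genes at 3 was 3.18 to 6.24 in the 6 libraries. The granule genes showed the same steps, with 9 of their 20 values at 4 or 5, 6 at 8 or 9, 1 at 6 and none at 1 to 3. The sources used here do not name the counting method, and a count of 4 or 5 may stand for a single sequenced fragment. By counting error alone a 0 allows up to 3 counts, which is 0.0186 to 0.0486 CPM in these libraries, and it allows more if a fragment gives several counts. For this reason no fold change is given for a gene that is at 0 in a whole group.

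**Figure D2:**
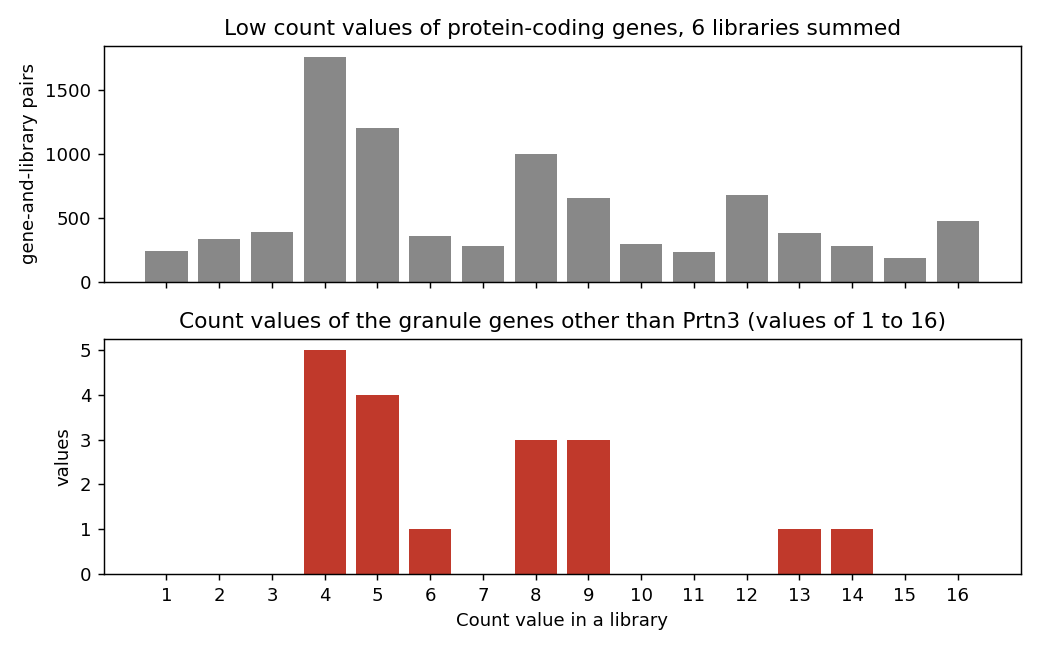
Frequency of each count value from 1 to 16, above for protein-coding genes over the 6 libraries (number of gene-and-library pairs) and below for the 9 granule genes other than Prtn3 (number of values). Both pile up at 4 to 5 and 8 to 9, and the granule genes have no value of 1 to 3.

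The azurophil granule genes encode the neutrophil serine proteases and myeloperoxidase. Elane (ENSMUSG00000020125.7, chromosome 10, 79886247 to 79888215, plus strand) encodes neutrophil elastase. It had 0, 0 and 0 counts in GIT1 CKO replicates 1, 2 and 3 and 8, 0 and 4 counts in GIT1 fl/fl replicates 1, 2 and 3. Its counts thus came from 2 control libraries, and the third control library was at 0 like the GIT1 CKO libraries.

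Mpo (ENSMUSG00000009350.13, chromosome 11, 87793581 to 87804413, plus strand) encodes myeloperoxidase, which makes hypochlorous acid and is the classical marker of myeloid progenitors. It had 9, 0 and 0 counts in the GIT1 CKO and 0, 5 and 0 counts in the controls, in replicate order. Ctsg (ENSMUSG00000040314.2, chromosome 14, 56099881 to 56102574, minus strand), the gene of cathepsin G, had 0, 0 and 4 counts in the GIT1 CKO and 0, 0 and 4 counts in the controls. Each of these genes was seen in 1 library per group, at a value of 1 or a few of the steps described above. Mpo overlaps the model Gm11505, which had 0 counts in all 6 libraries.

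Prtn3 (ENSMUSG00000057729.12, chromosome 10, 79874476 to 79883174, plus strand) encodes proteinase 3, a serine protease that lies beside elastase in the genome and in the azurophil granule. It had 225, 339 and 216 counts in GIT1 CKO replicates 1, 2 and 3, or 1.71, 2.11 and 2.69 CPM. The controls had 148, 273 and 181 counts, or 2.36, 4.06 and 2.93 CPM, in replicate order. GIT1 fl/fl replicate 2, the library with the distinct base composition, was the highest, and GIT1 CKO replicate 3 was above GIT1 fl/fl replicate 1, so the groups overlapped.

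The mean level of Prtn3 was 2.17 ± 0.494 CPM (SD, n = 3) in the CKO group and 3.12 ± 0.866 CPM (SD, n = 3) in control BMDMs. The log2 fold change (GIT1 CKO over GIT1 fl/fl) was -0.53 with a standard error (SE) of 0.276, and it did not pass the test (adjusted p = 0.362, edgeR's quasi-likelihood test, Benjamini-Hochberg over the 16287 genes tested). Without GIT1 fl/fl replicate 2 the log2 fold change was -0.27, and over all alternatives it ran from -0.71 to -0.27 with adjusted p from 0.152 to 0.668. Thus 0 of the 1 granule gene tested was called. Over all genes 79 were called higher in GIT1 CKO, which is 0.485% of those tested, and 44 were called lower, which is 0.27%. The study's looser rule asks for a change of over 1.5-fold and an unadjusted p below 0.05. It held for 6.48% of genes tested on the higher and 2.14% on the lower side, and Prtn3 (unadjusted p = 0.0989 from edgeR) was not among them.

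The counts of Prtn3 cannot be assigned to the protease alone. Its model opens with a transcript annotated as non-coding, which starts 5138 bases upstream of the coding transcript. The first exon of the non-coding transcript shares 159 bases (chr10:79874476-79874634) with the first exon of Plppr3 on the other strand. The shared bases, with a GC content of 72.3%, are shown on the plus strand of GRCm38 from the GENCODE M21 transcripts, since a read from them cannot be assigned to either gene without its strand.
Prtn3 and Plppr3: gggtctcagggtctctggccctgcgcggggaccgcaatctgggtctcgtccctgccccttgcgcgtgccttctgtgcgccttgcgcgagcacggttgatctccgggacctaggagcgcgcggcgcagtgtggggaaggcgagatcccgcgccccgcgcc
The sources used here do not say whether the counting used strand.

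Plppr3, which encodes a phospholipid phosphatase-related membrane protein and was chosen for this overlap after its values were seen, stood above Prtn3 in every library. Its level was 9.11, 8.76 and 8.04 CPM in the GIT1 CKO libraries against 9.76, 16.8 and 10.6 CPM in the controls, in replicate order, again highest in GIT1 fl/fl replicate 2. Its log2 fold change was -0.52 (SE 0.223, adjusted p = 0.291, edgeR). The counts of Prtn3 were 18.7% to 33.4% of those of Plppr3. Elane, whose model starts 3072 bases beyond the end of Prtn3, had no more than 8 counts in any library. The part of shared or non-coding transcripts in the Prtn3 counts was not tested.

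**Figure D3:**
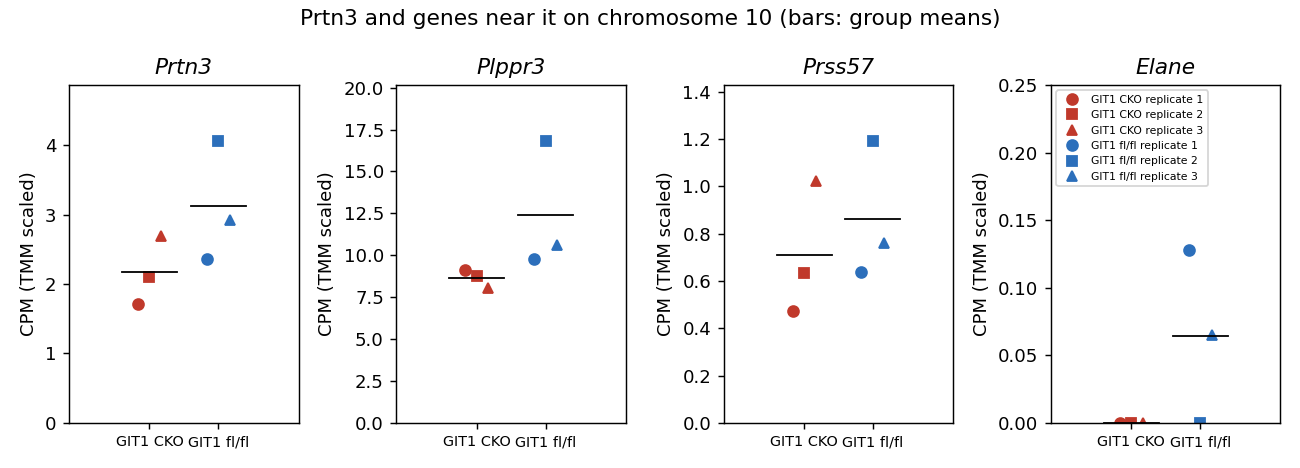
CPM of Prtn3, of Plppr3 (which overlaps it on the other strand), and of the granule protease genes Prss57 and Elane of the same chromosome, in each library with group means as bars. GIT1 fl/fl replicate 2 is the highest library for Prtn3 (4.06), Plppr3 (16.8) and Prss57 (1.19), while Elane stays at or below 0.128 CPM.

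S100a8 (ENSMUSG00000056054.9, chromosome 3, 90668978 to 90670035, plus strand) had the highest counts of the 9 genes at or near 0. It had 26, 30 and 0 counts in GIT1 CKO replicates 1, 2 and 3, or 0.197, 0.186 and 0 CPM, and 0 counts in each GIT1 fl/fl library. The counts came from 2 of the 3 GIT1 CKO libraries, and GIT1 CKO replicate 3 was at 0 like the controls. S100a8 did not pass the filter on low counts. Without that filter its unadjusted p was 0.0314 and its adjusted p 0.349 (edgeR).

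The libraries with S100a8 were also the deepest ones and those with the most haemoglobin transcripts. After thinning all libraries to 61895190 counts S100a8 was still at 0.204 and 0.253 CPM in GIT1 CKO replicates 1 and 2 and at 0 in the other 4. The haemoglobin genes Hbb-bs, Hbb-bt, Hba-a1 and Hba-a2 of red cells summed to 1.43, 0.292 and 0.0622 CPM in the GIT1 CKO libraries, in replicate order, against 0, 0 and 0.0647 CPM in the controls. The part of other marrow cells in the S100a8 counts was not tested.

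S100a9 (ENSMUSG00000056071.12, chromosome 3, 90692632 to 90695721, minus strand), the partner of S100a8 in calprotectin, lies 22596 bases from it. It had 5, 8 and 0 counts in the GIT1 CKO and 5, 0 and 0 counts in the controls, in replicate order. It was seen in the same GIT1 CKO libraries as S100a8, and also in GIT1 fl/fl replicate 1, where S100a8 was at 0. The calprotectin genes summed to 0.157 ± 0.136 CPM (SD, n = 3) in the CKO group and 0.0266 ± 0.0461 CPM (SD, n = 3) in control BMDMs, with an SD between replicates close to the mean in the first and above it in the second.

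The specific granule genes encode antimicrobial and metal-binding proteins. Ngp (ENSMUSG00000032484.8, chromosome 9, 110419747 to 110423012, plus strand), which encodes neutrophilic granule protein, a marker of mouse myelocytes, had 4, 0 and 8 counts in GIT1 CKO and 0 counts in each GIT1 fl/fl library. Ltf (ENSMUSG00000032496.7, chromosome 9, 111019271 to 111042767, plus strand), which encodes the iron-binding protein lactoferrin, had 0 counts in each GIT1 CKO library and 9, 0 and 4 counts in GIT1 fl/fl. Camp (ENSMUSG00000038357.10, chromosome 9, 109847379 to 109849617, minus strand), the gene of the cathelicidin peptide, had 0 counts in all 6 libraries. These 3 genes lie on chromosome 9, and the libraries with Ngp were not those with Ltf.

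Lcn2 (ENSMUSG00000026822.14, chromosome 2, 32384633 to 32388252, minus strand) encodes lipocalin 2, which binds bacterial siderophores and is made by many cells on exposure to LPS. It had 13, 5 and 14 counts in the GIT1 CKO and 0, 6 and 9 counts in the controls, which is 0.101 ± 0.0716 CPM (SD, n = 3) and 0.0783 ± 0.0734 CPM (SD, n = 3). It was seen in 5 of the 6 libraries, more than any granule gene but Prtn3, and its groups overlapped.

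By class, the azurophil genes without Prtn3 summed to 0 to 0.0683 CPM in GIT1 CKO and 0.0744 to 0.129 CPM in control libraries, and the specific granule genes to 0.0311 to 0.274 CPM and 0.0893 to 0.21 CPM. The 9 genes without Prtn3 summed to 0.341 ± 0.0841 CPM (SD, n = 3) and 0.285 ± 0.105 CPM (SD, n = 3), with no test since the genes were chosen with results known. The class sums pointed in different directions. The ranges of the azurophil sum without Prtn3 did not overlap, but they rested on 9, 0 and 4 counts in GIT1 CKO against 8, 5 and 8 in control libraries. When edgeR was run without the filter, 9 granule genes were fitted, 3 had an unadjusted p under 0.05 (Elane 0.048, Ltf 0.0457 and S100a8 0.0314), and 0 had an adjusted p under 0.05. The share of all genes with an unadjusted p under 0.05 in that fit is not given here. These 3 genes thus cannot be weighed against it, and each was at 0 in a whole group. In bulk samples a lower share of a cell type and less RNA per cell cannot be told apart.

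Levels between genes were compared per kilobase of exon. Averaged over the 6 libraries, Prtn3 was at 1.53 CPM per kilobase, followed by S100a8 at 0.0921, S100a9 at 0.0535, Lcn2 at 0.0342, Elane at 0.0326, Ctsg at 0.0185, Ngp at 0.0177, Ltf at 0.0101, Mpo at 0.00695 and Camp at 0. Only the step from Prtn3 to the rest exceeded the spread between libraries, since each of the others was at 0 in at least 1 library. On the same scale Lyz2, which encodes lysozyme, a protein of macrophages and of neutrophil granules, was at 19500 CPM per kilobase, and the other 19 macrophage markers were at 14.1 to 5960.

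**Figure D4:**
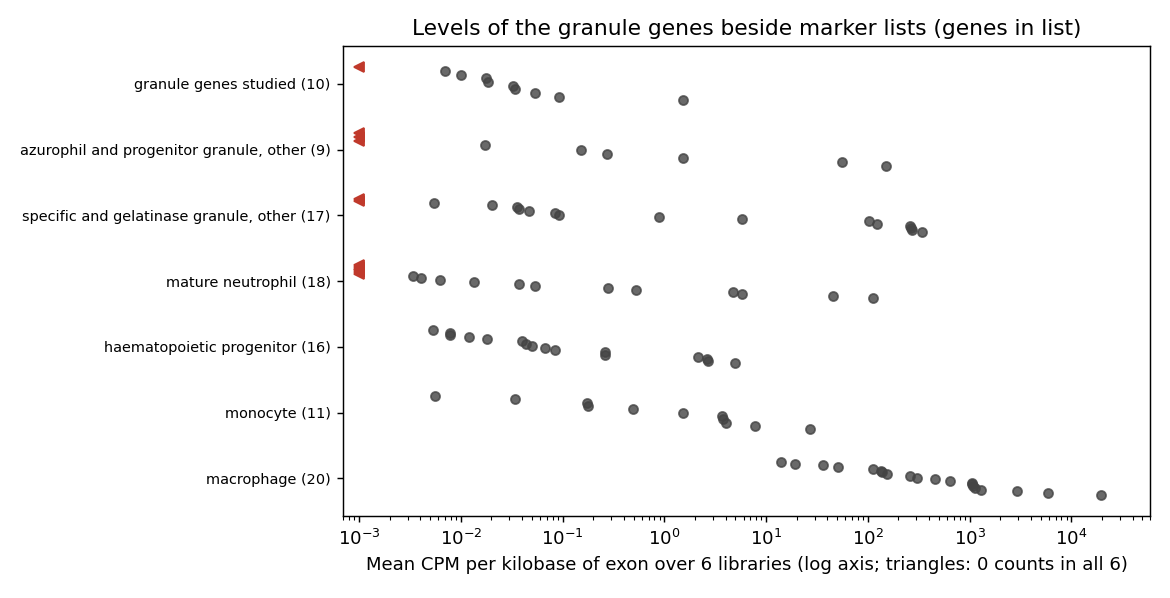
Mean CPM per kilobase of exon over the 6 libraries (log axis), 1 point per gene, for the granule genes and for marker lists; triangles at the left edge are genes with 0 counts in all libraries. The granule genes reach 1.53 (Prtn3), below the lowest macrophage marker at 14.1.

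Other genes of azurophil granules and of granulocyte progenitors ranged from 0 to high levels, and none of those tested was called. Of 9 listed, Ms4a3, Bpi and Fcnb, which mark granulocyte-monocyte progenitors or neutrophil granules, had 0 counts in all 6 libraries, and 5 were tested. None was called in either direction by edgeR, DESeq2 or limma-voom, and none had an unadjusted p under 0.05. Their median log2 fold change was 0.46, against 0.01 over all genes tested. Most of the signal came from Ctsc, which encodes the lysosomal dipeptidyl peptidase that activates the granule proteases. It stood at 970, 993 and 1060 CPM in GIT1 CKO and 960, 499 and 745 CPM in control libraries, with a log2 fold change of 0.46 (SE 0.225, adjusted p = 0.341, edgeR). Srgn, the proteoglycan core on which granule proteins are packed, was at 148 to 156 CPM in 4 libraries and lower in GIT1 fl/fl replicates 2 (60.3 CPM) and 3 (53.0 CPM) (log2 fold change 0.84, SE 0.385, adjusted p = 0.317). Prss57, a granule protease gene on chromosome 10 that was named after its values were seen, was at 0.471 to 1.19 CPM in the 6 libraries. The model Fstl3, with 629 counts in all against 413 for Prss57, overlaps it.

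Of 17 other genes of specific and gelatinase granules, 2 were at 0 in all libraries (Olfm4 and Wfdc21), 10 were tested and none was called by edgeR, while 3 had an unadjusted p under 0.05. DESeq2 called 1 of them higher in GIT1 CKO, and edgeR with the GC trend removed called 2. Over all 16287 genes given to each method, DESeq2 called 660 higher and 448 lower, and edgeR with the GC trend removed 431 and 364. Limma-voom called 94 higher and 51 lower. Calls of these methods in this and the later lists stand beside those totals. In this list the median log2 fold change was 0.10. The highest in mean CPM were Cybb, a subunit of the NADPH oxidase, with a log2 fold change of 0.21 (SE 0.144, adjusted p = 0.461), and Itgam, the integrin chain CD11b, with 0.23 (SE 0.153, adjusted p = 0.45). Per kilobase of exon the highest was Mmp9, the gelatinase B gene, which was named after its values were seen (log2 fold change 0.43, SE 0.12, adjusted p = 0.171). Cybb and Itgam are genes of macrophages as well as neutrophils, and for Itgam, which has overlapping models in the table, the one with more counts was used.

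**Figure D5:**
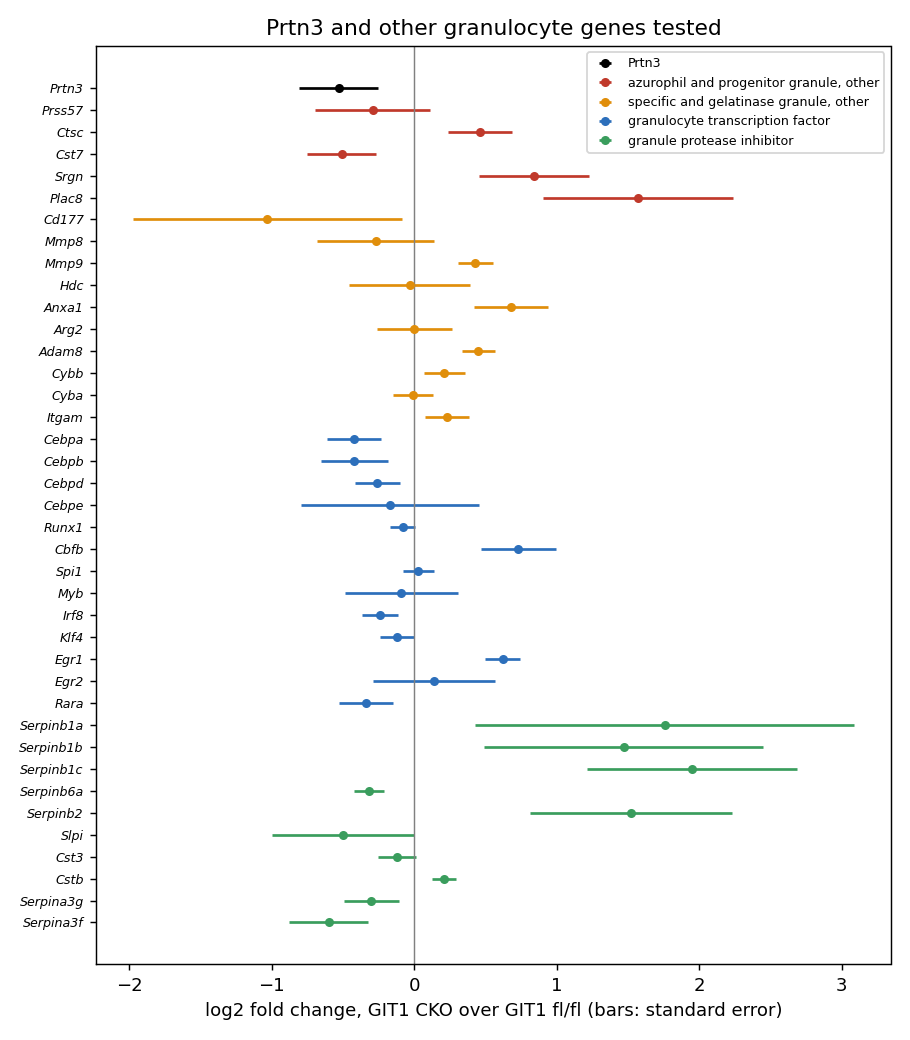
Log2 fold change (GIT1 CKO over GIT1 fl/fl) with its standard error for Prtn3 and for the tested genes of 4 lists around granule genes, 1 row per gene. Prtn3 lies at -0.53, and none of the genes shown passed an adjusted p of 0.05 in edgeR.

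Markers of mature neutrophils ranged from 0 to well above the granule genes. Of 18 listed, 6 were at 0 in all libraries, among them Ly6g, the defining surface marker of mouse neutrophils, and Cxcr2, their chemokine receptor, had counts in GIT1 CKO replicate 3 alone (0.0622 CPM). Mmp8 at 6.83 to 23.4 CPM and Mxd1 at 28.3 to 42.7 CPM were above Prtn3 in every library, and Slfn4 was at 1.35 to 2.45 CPM. Of the 8 tested, none was called by edgeR, DESeq2 or limma-voom and 2 had an unadjusted p under 0.05, with a median log2 fold change of -0.23. These 2 were Mxd1 (log2 fold change -0.39, SE 0.111, adjusted p = 0.174, edgeR) and Trem1 (2.34, SE 0.836, adjusted p = 0.235, edgeR). The list summed to 259 to 269 CPM in GIT1 CKO and 251 to 299 CPM in control libraries. Most of this was Csf3r, the G-CSF receptor, at 138 to 189 CPM (log2 fold change 0.02, SE 0.128, adjusted p = 0.943), and Wfdc17 at 10.5 to 99.5 CPM (-0.19, SE 0.69, adjusted p = 0.896), both of which macrophages can express.

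Of the 16 haematopoietic progenitor markers all had counts and 11 were tested. Cd34, a sialomucin of stem cells, progenitors and vessel cells, rose in GIT1 CKO BMDMs, and the other 10 did not pass the test in edgeR. Cd34 stood at 3.36, 2.71 and 3.22 CPM in GIT1 CKO and 0.655, 0.729 and 0.793 CPM in control libraries, with no overlap between the groups and a log2 fold change of 2.09 (SE 0.202, adjusted p = 0.0156, edgeR). Its adjusted p was 0.138 without GIT1 CKO replicate 1, 0.139 without GIT1 CKO replicate 2 and 0.128 without GIT1 fl/fl replicate 3, within 1.01e-13 to 0.179 over all alternatives. The model Gm16897, with 102 counts in all against 1278 for Cd34, overlaps it. The list had a median log2 fold change of 0.49 and a sum of 102 to 118 CPM in GIT1 CKO and 67.1 to 91.2 CPM in control libraries. DESeq2 called 2 genes of the list higher, and edgeR with the GC trend removed called 2. Of the 11 tested, 5 had an unadjusted p under 0.05 in edgeR and 10 had a log2 fold change above 0. The median log2 fold change over all genes tested was 0.01. The shares of all genes with such a p, with a log2 fold change above 0 or without overlap between the groups are not given here.

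The transcription factors that act on granule genes ranged from near 0 to far above the granule genes. Gfi1 (means of 0.0401 CPM in GIT1 CKO and 0.0216 CPM in controls) and Klf5 (0.0643 and 0 CPM) did not pass the filter. Cebpe (0.246 and 0.277 CPM) and Myb (0.379 and 0.407 CPM) were tested but stood below Prtn3. Of 15 listed 13 were tested and none was called by edgeR (2 had an unadjusted p under 0.05, DESeq2 called 1, and edgeR with the GC trend removed called 2), with a median log2 fold change of -0.12. Spi1, the gene of PU.1, was at 376 to 479 CPM in the 6 libraries (log2 fold change 0.03, SE 0.109, adjusted p = 0.914). Irf8, which favours the monocyte over the granulocyte fate, was at 375 to 529 CPM (-0.24, SE 0.125, adjusted p = 0.359).

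Among 18 inhibitors of granule proteases, 8 were at 0 in all libraries, 10 were tested and none was called by edgeR, DESeq2 or limma-voom, though 3 had an unadjusted p under 0.05. The median log2 fold change was 0.04. Cst3, which encodes the cathepsin inhibitor cystatin C, had the highest mean CPM, at 988 to 1380 CPM (log2 fold change -0.12, SE 0.134, adjusted p = 0.635). Serpinb6a, an inhibitor of serine proteases including cathepsin G, was at 307 to 441 CPM (-0.32, SE 0.105, adjusted p = 0.213), and 3 models with counts overlap it.

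Of 20 receptors of granule proteins, 17 were tested and 1 was called. Fpr1, the formyl peptide receptor, rose from 34.0, 25.5 and 35.0 CPM in the GIT1 fl/fl to 87.6, 85.7 and 83.7 CPM in the GIT1 CKO libraries, a log2 fold change of 1.44 (SE 0.143, adjusted p = 0.0172, edgeR). Its adjusted p was 0.138 without GIT1 CKO replicate 1, 0.143 without GIT1 CKO replicate 2 and 0.128 without GIT1 fl/fl replicate 3, within 8.99e-15 to 0.154 over all alternatives. The list had a median log2 fold change of 0.20, and 4 of its genes had an unadjusted p under 0.05 in edgeR. DESeq2 called 2 of them higher, and edgeR with the GC trend removed called 3 higher.

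Lcn2 and the calprotectin genes were also members of a list of 35 acute phase genes that LPS can induce in macrophages. Of these 26 were tested, 1 was called higher and none lower, and the median log2 fold change was 0.30. The called gene was Marco, a scavenger receptor, at 109, 108 and 114 CPM in GIT1 CKO and 32.8, 43.3 and 38.3 CPM in control libraries (log2 fold change 1.54, SE 0.125, adjusted p = 0.0124, edgeR). Its adjusted p was 0.122 without GIT1 CKO replicate 1, 0.124 without GIT1 CKO replicate 2 and 0.128 without GIT1 fl/fl replicate 3, within 6e-20 to 0.154 over all alternatives. DESeq2 called 8 genes of the list higher, limma-voom 3, and edgeR with the GC trend removed 7. Over all genes they called 660, 94 and 431 higher, in that order. In edgeR 10 genes of the list had an unadjusted p under 0.05. The granule genes of this list, Lcn2, S100a8 and S100a9, did not pass the filter. Neither did Il6 and Saa1, nor Saa2, Csf3, Csf2 and Il12b, which were at 0 in all 6 libraries. Averaged over the libraries, the 35 genes ranged from 0 to 91.0 CPM per kilobase of exon, with a median of 2.01. All 6 libraries came from LPS-treated cells, so induction of these genes by LPS was not tested.

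Of the 20 macrophage markers 1 was called by edgeR and 7 had an unadjusted p under 0.05. DESeq2 called 1 higher and 1 lower, and edgeR with the GC trend removed called 3 higher and 3 lower. Lyz2 was at 15800, 15400 and 16900 CPM in GIT1 CKO and 31700, 39500 and 34500 CPM in control libraries and fell by 1.14 in log2 units (SE 0.107, adjusted p = 0.0153, edgeR). A response of Lyz2 to the loss of GIT1 and an effect of the Cre allele on its own locus cannot be told apart. Its adjusted p was 0.138 when GIT1 CKO replicate 1 was left out, 0.143 when replicate 2 of the same group was and 0.128 when GIT1 fl/fl replicate 3 was, within 3.72e-13 to 0.154 over all alternatives. Among 11 monocyte markers none of the 9 tested was called by edgeR and 1 had an unadjusted p under 0.05, while DESeq2 called 1 lower, with a median log2 fold change of -0.20 and sums of 249 to 302 CPM in GIT1 CKO and 355 to 373 CPM in control libraries.

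Markers of the other cell types that marrow holds were also counted. EdgeR called none of the 3 eosinophil, 4 mast cell and basophil, 3 erythroid, 6 megakaryocyte and platelet, 6 B cell, 1 T and NK cell and 10 dendritic cell genes tested, of which 1, 2, 2, 1, 2, 1 and 3 in that order had an unadjusted p under 0.05. DESeq2 called 1 gene in each of these lists, higher in the eosinophil and the T and NK cell list and lower in the others, and limma-voom called 1 B cell gene lower. With the GC trend removed edgeR called genes in each of these lists except that of mast cells and basophils. Of 13 stromal and endothelial genes tested 4 had an unadjusted p under 0.05 in edgeR, DESeq2 called 2 higher, and edgeR called 1. This was Pecam1, an adhesion molecule of vessel cells and leukocytes, with a log2 fold change of 1.10 (SE 0.108, adjusted p = 0.0162, edgeR), whose adjusted p was 0.139 without GIT1 CKO replicate 1, 0.143 without GIT1 CKO replicate 2 and 0.128 without GIT1 fl/fl replicate 3, within 1.58e-15 to 0.187 over all alternatives. The eosinophil list summed to 21.9 to 29.1 CPM in GIT1 CKO and 3.93 to 10.4 CPM in control libraries, mainly from the chemokine receptor gene Ccr3 (log2 fold change 2.15, SE 0.483, adjusted p = 0.124).

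For the gene of each class with the highest mean CPM, the genes with the most similar pattern were sought among 9052 genes with a mean log2 CPM of at least 3. For Prtn3 they were 4833439L19Rik (Pearson's r = 0.997), Ldah (0.99) and Ints11 (0.989) over the 6 libraries, and 522 genes had an r above 0.9, so the pattern was shared widely. For S100a8 they were Rps12-ps3 (0.997), Eif4a-ps4 (0.993) and Gm13456 (0.992), and for Lcn2 Eif2b5 (0.992), Zscan21 (0.98) and Dram1 (0.963). The 6 points share depth and base composition, and S100a8 and Lcn2 rest on counts of 0 to 30.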

How the data were processed

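The mRNA of LPS-treated BMDMs was sequenced in 3 GIT1 CKO and 3 GIT1 fl/fl libraries. Per the submitters' processing notes the authors used fastp 0.17.1, HISAT2 2.1.0, DESeq2 1.18.1 and R 3.4.3 (trimming, alignment and group comparison). The sources used here give no counting tool, strand setting or build. Whole-number counts of each gene in each library, as deposited, entered every test. Its 6 columns of normalized counts, and the authors' own comparison (log2 fold change, p-value and its adjusted form), were not used. Of its gene IDs 49035 were matched to GENCODE M21 (GRCm38), all 10 granule genes among them.

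The tests were run with edgeR 4.0.16 (R 4.3.3). FilterByExpr with a minimum count of 10 kept 16287 of 25239 genes with counts, scaling was TMM, and the robust quasi-likelihood F-test compared GIT1 CKO with GIT1 fl/fl (adjusted p under 0.05 called). The fit was tested on simulated data. The alternatives were DESeq2 1.42.0, limma-voom (limma 3.58.1), RLE, upper-quartile and total-count scaling, other filters, thinning to 61895190 counts, a replicate block, the GC trend of each library removed, and each library left out. Intervals and floors of 3 counts cover only counting error, as there were no molecular identifiers. Libraries are described as biological replicates, and nothing states separate animals, so p-values measure the spread between these libraries, which may be partly technical. The genes and lists were chosen with earlier results of these data known. The share of all genes with an unadjusted p under 0.05 is not given here, so such counts in the lists cannot be weighed against it. Named beside all 10 granule genes were, per list, the called genes (at most 5) or otherwise the 2 of highest mean CPM. The choice of genes at 0 in all libraries, Cxcr2, Il6, Saa1, Mmp9, Prss57, Plppr3, Xist, haemoglobin genes and Y-linked genes followed a look at their values. So did that of Mmp8, Mxd1, Slfn4, Trem1, Gfi1, Klf5, Cebpe and Myb.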

Additional observations from a re-analysis of the deposited data

How the results depend on the processing

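Prtn3, the only granule gene fitted under every alternative, was called under none of them. The fit with no filter held 9 granule genes, and the fits without GIT1 CKO replicate 3 or a control library held 1 or 2 of S100a8 and Lcn2 beside Prtn3, with none called. Camp was never fitted. Prtn3 stayed lower in GIT1 CKO in each of them (log2 fold change -0.712 to -0.266 as each library was left out). The counts over all genes, 79 higher and 44 lower, moved more. DESeq2 called 660 higher and 448 lower, and removal of the GC trend gave 431 and 364. With a replicate block they were 0 and 1, with Prtn3 at -0.516 (adjusted p = 0.414). Same-numbered deviations from the group mean correlated at -0.045, 0.04 and 0.01, against -0.078 to 0.073 for libraries of unlike number. These values show no pairing by replicate number but cannot settle whether the libraries were prepared in pairs. On that ground a block with the GC trend removed was not run. As each library was left out, 0 to 853 genes were higher and 1 to 306 lower. The cause was not tested. The summed CPM of the azurophil genes ran from 1.94 to 2.42 in the GIT1 CKO group and 2.78 to 3.6 in the controls as each library was left out, that of calprotectin from 0.117 to 0.235 and 0 to 0.0399, and that of the specific granule genes from 0.08 to 0.202 and 0.117 to 0.177. In the other lists, 320 of 360 counts of calls stayed within 1.5 times under the other settings and 183 of 216 as each library was left out. Low counts limit what can be said of 9 of the 10 genes, with 34 of their 54 values at 0 and the others at 4 to 30 counts, on a scale with steps of about 4.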
